A study of Mus musculus with 4 samples.

Results

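A synthetic miR-26a was put back into cartilage cells that lack miR-26a, and the RNA of these cells was set against that of knockout cells. The comparison is between the library miR-26a KO + mimic and the library miR-26a KO, and it covers every gene with 5 TPM or more in both libraries and 20 reads or more in miR-26a KO. TPM is the read number of a gene divided by its length and scaled to the same sum in each library. Of 55141 genes in the deposited TPM table, 6930 were kept, and they held 96.1% of the TPM of the mimic library and 96.2% of that of miR-26a KO. The filter used levels and not the ratio between the libraries.

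The series holds 4 libraries with 1 library for each condition, made from articular chondrocytes of the femoral head of mice 3 weeks old and grown in serum. The wild type, miR-26a KO and Cart-miR-23-KO mice were C57BL/6 by their labels, the last lacking the miR-23a and miR-23b clusters in cartilage only, and the mice of the mimic library were labelled C57BL6/J. The mimic is a double-stranded RNA that was carried into miR-26a KO chondrocytes with a lipid reagent, Lipofectamine RNAiMax. The protocol also names a control RNA, Silencer Negative Control siRNA#1, but no label says whether the miR-26a KO library had received it or no transfection at all. The mimic, the transfection, the strain label, the animal and the culture therefore cannot be told apart, and no test between conditions could be made. Every interval below is an exact 95% Clopper-Pearson interval of the ratio from the reads of 1 gene in both libraries, and it covers counting error only.

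A microRNA is a short RNA that an Argonaute protein carries to messenger RNAs. Bases 2 to 8 from its 5′ end, the seed, pair with sites that mostly lie in the 3′ untranslated region (UTR) of the target, and the paired messenger is then translated less and broken down sooner. A single microRNA has many targets, and most of them change by little. miR-26a is made from a pair of genes that lie in introns of the Ctdsp phosphatase genes, and its relative miR-26b lies in another member of that family.

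The mimic's strands are shown first, because the seed of each strand sets which messengers it can pair with. They come from the labels, and the mouse forms come from RefSeq. The seed is in capitals.
Mimic sense strand: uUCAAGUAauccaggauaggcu
mmu-miR-26a-5p: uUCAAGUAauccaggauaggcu
mmu-miR-26b-5p: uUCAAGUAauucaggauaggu
Mimic antisense strand: cCUAUUCUugguuccuugcacg
mmu-miR-26a-1-3p: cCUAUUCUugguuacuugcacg
The sense strand was identical to mmu-miR-26a-5p over its 22 bases and had the seed of mmu-miR-26b-5p. The antisense strand differed from mmu-miR-26a-1-3p by A14C, with the mouse base first and positions counted from 1 at the 5′ end, and it had the same seed. In GRCm38.p6 the 5p arm lies at chr9:119031811-119031832 in Mir26a-1 and at chr10:126995543-126995564 in Mir26a-2, and that of Mir26b lies at chr1:74394324-74394344, all on the plus strand. The seed of the sense strand pairs with TACTTGA in a messenger. A gene was put in the class of its best site in any annotated UTR of 50 bases or more: 8mer (TACTTGAA), 7mer-m8 (TACTTGA), 7mer-A1 (ACTTGAA), 6mer (ACTTGA) or none.

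The sites below lie in the genes that the results turn on, each in the UTR of a GENCODE M21 transcript with coordinates in GRCm38. They are given 5′ to 3′ in the direction of the transcript, with the site in capitals. The first 8 are in genes that were lower with the mimic and the last 2 in genes that were higher.
Tanc2 8mer, chr11:105927963-105927988, plus strand: ccactgtgcagagcTACTTGAAtatt
Tanc2 8mer, chr11:105928465-105928490, plus strand: tctggaaaattccgTACTTGAAtgta
Jarid2 7mer-m8, chr13:44921025-44921050, plus strand: taaattgttttaaaTACTTGAgcctt
Rab23 7mer-m8, chr1:33742482-33742507, plus strand: attttaaaatgtacTACTTGAttaaa
Hoxa9 8mer, chr6:52223791-52223816, minus strand: tcattctgccaaaaTACTTGAAcact
Phldb2 8mer, chr16:45746500-45746525, minus strand: atgatgcaagggttTACTTGAAcaat
Plod2 8mer, chr9:92608056-92608081, plus strand: ttttaaagcttacgTACTTGAAtttt
Ccnd2 8mer, chr6:127128921-127128946, minus strand: agttgtattcattgTACTTGAAgacc
Cdk6 8mer, chr5:3528132-3528157, plus strand: gggaccctgtgctcTACTTGAAgttt
Runx3 8mer, chr4:135177655-135177680, plus strand: ctactttaaagtgcTACTTGAAagca
The Plod2 site starts 841 bases after the stop codon in a UTR of 1198 bases that also holds a 7mer-m8 and a 7mer-A1 site. The presence of a site is a match of letters and no proof of binding.

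The libraries were shallow and alike in depth. Reads on genes came to 1505805 in wild type, 1369924 in miR-26a KO and 1336496 in Cart-miR-23-KO, and 1449246 reads were recovered for the mimic library, whose counts were worked out from its TPM. A gene kept had a median of 68 reads in miR-26a KO and 71 with the mimic, and 4516 of the 6930 had under 100 reads in miR-26a KO. A gene with no read could still make up to 0.00022% of the reads of miR-26a KO. At the edge of the filter, the 112 genes with exactly 20 reads in miR-26a KO had ratios from 0.374 to 1.82, and the 99 genes left out with 19 reads had ratios from 0.393 to 4.87. All 9 chondrocyte markers were kept, among them Col2a1 (cartilage collagen) at 7062 TPM in wild type, 5565 in miR-26a KO, 5664 with the mimic and 5452 in Cart-miR-23-KO. The labelled cell type thus had its markers in all 4 libraries. None of the endothelial, erythroid or skeletal muscle markers was kept.

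Few genes differed by much between the mimic and the knockout library. The median TPM ratio, mimic to miR-26a KO, was 0.989, and 93.4% of the kept genes lay within 1.5-fold. Only 9 genes, 0.130% of those kept, had a ratio above 2, and 27 genes, 0.390%, had a ratio below 0.5. The filter asks for reads in miR-26a KO, which leaves out genes that were low there: with 20 reads in either library, a choice made after the values were seen, 102 genes were above 2 and 80 below 0.5. At the smaller fold of 1.5 there were 169 genes higher (2.44%) and 287 lower (4.14%), and on either side of 1 the share lower was 52.6%. The SD of the log2 ratio across genes was 0.32, against 0.46 for miR-26a KO to wild type in the same genes, where 231 genes were above 2 and 51 below 0.5. The counting interval left out 1 for all 36 genes past 2-fold, but these were picked by the same ratio, so this adds no support. It left out 1 for 756 genes (10.9%) in all. About 1 in 20 such intervals would leave it out from counting error alone.

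**Figure D1:**
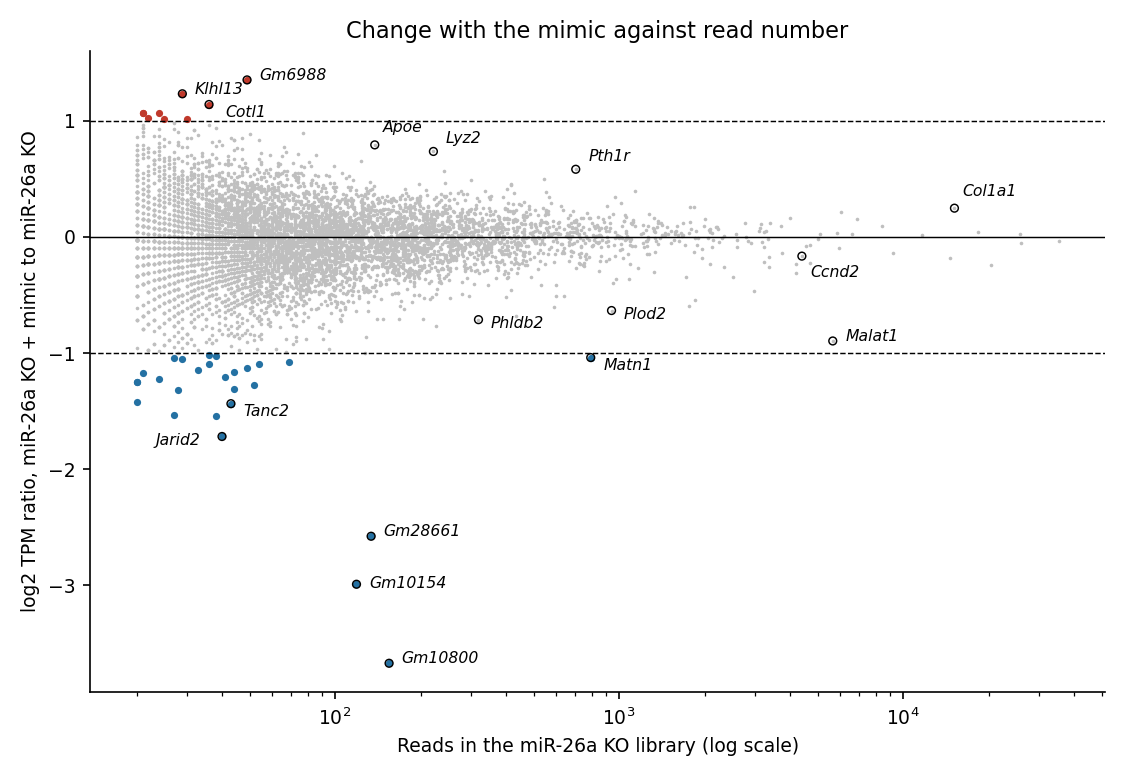
Each point is 1 of the 6930 kept genes, with its reads in miR-26a KO on a log axis and the log2 TPM ratio, mimic to miR-26a KO, on the vertical axis. Red points lie above 2-fold and blue points below 0.5, marked by dashed lines, and the genes named in the text are circled. The cloud narrows as reads increase: all 9 red genes have 49 reads or fewer, and the 4 blue genes with 100 reads or more include Matn1.

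Genes with high read numbers differed less. Among the 2414 kept genes with 100 reads or more in miR-26a KO, none had a ratio above 2, 4 had a ratio below 0.5, 3 were above 1.5 and 28 were below 1/1.5. This filter was chosen after the values were seen. The genes above 2 had a median of 25 reads in miR-26a KO, and those below 0.5 a median of 38.

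The lowest ratios belonged to genes that may share reads with copies elsewhere. Gm10800 on chromosome 2 stood at 255 TPM in wild type, 247 in miR-26a KO, 19.3 with the mimic and 1.60 in Cart-miR-23-KO, a ratio of 0.0784 (0.0408 to 0.138). The processed pseudogene Gm10154 stood at 27.0 TPM in wild type, 353 in miR-26a KO, 44.4 with the mimic and 444 in Cart-miR-23-KO. The unprocessed pseudogene Gm28661 stood at 188, 207, 34.6 and 46.4 TPM in the same order. Each also differed widely between wild type and Cart-miR-23-KO, and their values are uncertain.

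The coding genes that came next were of varied function. Jarid2, a partner of Polycomb repressive complex 2, stood at 89.5 TPM in wild type, 98.2 in miR-26a KO, 29.8 with the mimic and 46.8 in Cart-miR-23-KO. It had 40 reads in miR-26a KO and 13 with the mimic, a ratio of 0.304 (0.149 to 0.580), and 2 sites of 7 bases. Hes1, a repressor that Notch signalling switches on, stood at 44.5 TPM in wild type, 116 in miR-26a KO, 40.0 with the mimic and 61.3 in Cart-miR-23-KO. Its ratio was 0.344 (0.172 to 0.650), and it had no site. Both genes were lowest with the mimic among the 4 libraries, Hes1 close to its wild type level.

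Rab23, a small GTPase that holds back Hedgehog signalling, stood at 19.4 TPM in wild type, 63.9 in miR-26a KO, 22.1 with the mimic and 42.7 in Cart-miR-23-KO. Its reads went from 27 to 10, a ratio of 0.346 (0.149 to 0.738), with 2 sites of 7 bases. Tanc2, a scaffold protein known from synapses, stood at 61.5 TPM in wild type, 70.8 in miR-26a KO, 26.2 with the mimic and 49.6 in Cart-miR-23-KO, a ratio of 0.369 (0.198 to 0.661). Its UTRs held 3 sites, of which the 8mers are printed above. The others among the 12 lowest were Alkbh7 (0.374), Cyp27a1, a sterol hydroxylase (0.400), Sema3b, a secreted semaphorin (0.403), Fam111a (0.413) and Bdh1, an enzyme of ketone bodies (0.420), each with 52 reads or fewer in miR-26a KO. Fam111a and Bdh1 had 1 7mer-A1 site each and the other 3 had none.

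Of the 27 genes below 0.5, 21 had a UTR that could be searched, and 8 of these had a site of 7 or 8 bases, 1 had a 6mer and 12 had none. Sites of 7 or 8 bases were present in 23.3% of all 6678 kept genes with a searched UTR. Of the 9 genes above 2, 8 could be searched, and 0 had such a site.

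The best counted gene below 0.5 was Matn1, which codes for matrilin-1, a protein of the cartilage matrix that binds collagen and aggrecan. It stood at 1193 TPM in wild type, 418 in miR-26a KO, 203 with the mimic and 480 in Cart-miR-23-KO. Its reads went from 795 to 414, a ratio of 0.487 (0.431 to 0.549), with no site. Matn1 was thus lower in the knockout than in wild type and lower still with the mimic. Cyp27a1 and Gm10800 were the other named genes below 0.5 that did not turn back towards wild type.

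The highest ratio belonged to the processed pseudogene Gm6988 at 2.56 (1.83 to 3.62), with 49 reads in miR-26a KO and 134 with the mimic. Klhl13, an adaptor of a cullin ubiquitin ligase used in cell division, stood at 20.0 TPM in wild type, 9.38 in miR-26a KO, 22.1 with the mimic and 15.2 in Cart-miR-23-KO. Its ratio was 2.35 (1.51 to 3.75). Cotl1, which binds actin filaments, stood at 36.6, 23.7, 52.3 and 79.2 TPM in the same order, a ratio of 2.21 (1.48 to 3.35). In both genes miR-26a KO was the lowest of the 4 libraries.

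Cmtm6, which stabilises PD-L1 at the cell surface, stood at 112 TPM in wild type, 63.1 in miR-26a KO, 132 with the mimic and 129 in Cart-miR-23-KO. Zfp395, a zinc finger protein, stood at 214, 65.3, 133 and 199 TPM in that order. Both were lowest in miR-26a KO. The ratio was 2.10 for Hs1bp3, 2.09 for Tbc1d1, a regulator of glucose transporter traffic, 2.02 for Fam171a1 and 2.02 for the protease Sppl2b. Suclg2, a subunit of succinyl-CoA ligase (1.97), Arap2 (1.96) and the mitochondrial protein Chchd10 (1.95) followed just under 2-fold. These 7 genes had between 21 and 36 reads in miR-26a KO.

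The ratio with the mimic was compared with the ratio of miR-26a KO to wild type, to see whether each difference turned back what the knockout library showed. Over all kept genes the signs were opposite in 4471, or 64.5%. Both ratios contain the miR-26a KO library, so a high or low value there moves them in opposite directions, and how much of this share comes from it was not tested. All 9 genes above 2 had a knockout to wild type ratio below 1, and 23 of the 27 below 0.5 had one above 1. At 1.5-fold, 135 of the 169 higher genes and 243 of the 287 lower genes were on the other side of 1 from their knockout ratio. In the opposite view, 56.9% of kept genes had a knockout to wild type ratio above 1. Of the 705 genes that were over 1.5-fold higher in miR-26a KO, 521 were lower with the mimic (73.9%), beside 52.6% of all kept genes. By over 1.5-fold, 100 of the 705 were lower, beside 4.14% of all kept genes. Of the 296 genes over 1.5-fold lower in miR-26a KO, 241 were higher with the mimic (81.4%), beside 47.4% of all kept genes. By over 1.5-fold, 62 of the 296 were higher, beside 2.44% of all kept genes.

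A gene can move back towards wild type and still end outside the range of the other libraries. The mimic library was the highest of the 4 in 23.9% of kept genes and the lowest in 19.3%. It was the highest in 6 of the 9 genes above 2 and the lowest in 23 of the 27 genes below 0.5, and a library past 2-fold from another is more often at an end of the order by construction. Rab23, Gm10800 and Gm10154 were among the 4 genes below 0.5 that stayed within the range of the others, and Cotl1, Hs1bp3 and Zfp395 were the 3 such genes above 2.

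**Figure D2:**
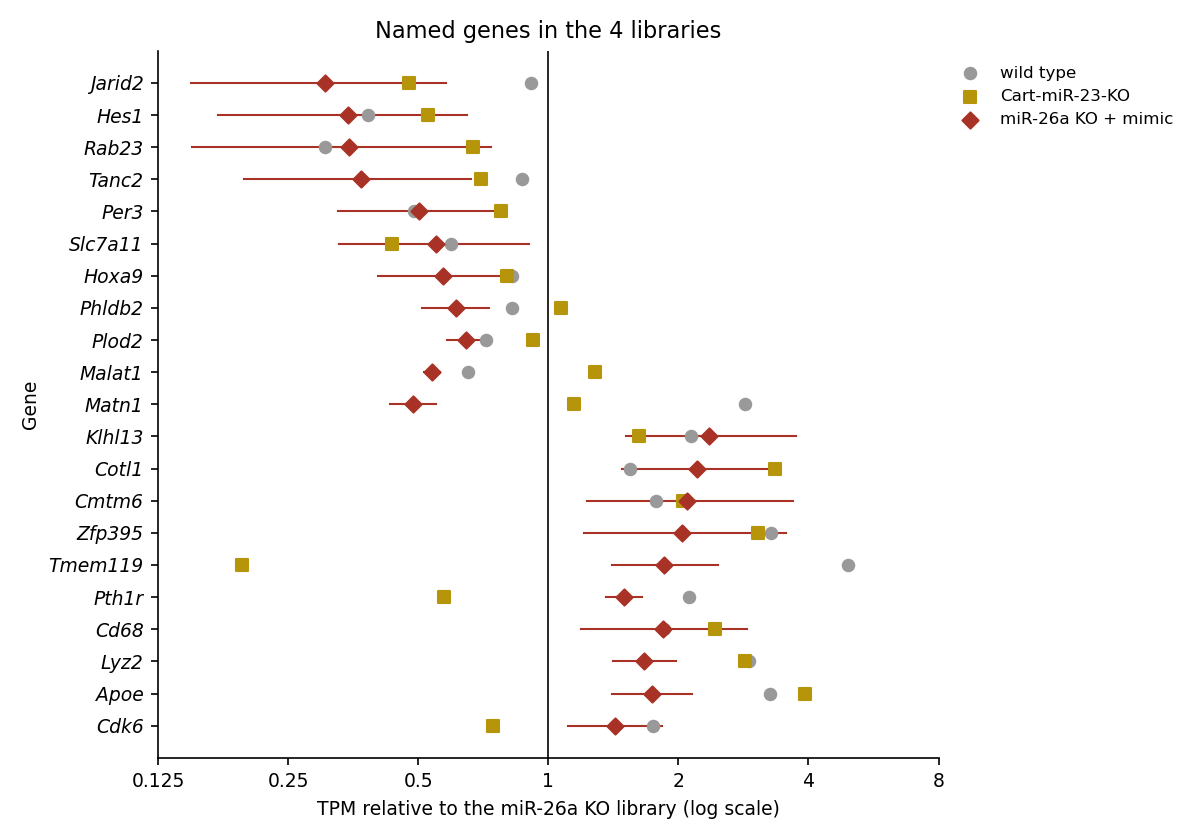
TPM of 21 named genes relative to miR-26a KO on a log2-spaced axis, where 1 is the miR-26a KO library itself. Diamonds are the mimic library with its 95% counting interval, circles wild type and squares Cart-miR-23-KO. Hes1, Rab23 and Per3 lie beside wild type with the mimic, Jarid2, Tanc2 and Matn1 lie below all other libraries, and Lyz2, Apoe and Tmem119 cover part of the distance to wild type.

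Genes with an 8mer for the mimic's sense strand had a lower median ratio than genes with no site, and those with a site of 7 bases lay between. The 368 genes with an 8mer had a median log2 ratio of -0.12, and 248 of them (67.4%) were lower, beside a background of 52.5% lower over all 6678 genes with a searched UTR. The median was -0.031 for the 464 genes with a 7mer-m8, -0.053 for the 722 with a 7mer-A1, -0.0026 for the 1083 with a 6mer and -0.0018 for the 4041 with none. The 6mer genes thus lay beside those without a site, and the 8mer genes lay lowest. In the ratio of miR-26a KO to wild type the same 8mer genes had a median log2 value of 0.14, and genes with no site one of 0.051. From mimic to wild type these medians were -0.019 and 0.046. In the ratio of Cart-miR-23-KO to wild type, which does not use the miR-26a libraries, they were -0.0051 and -0.017.

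More sites went with lower values. The median log2 ratio was -0.0018 for the 5124 genes with no site of 7 or 8 bases, -0.046 for the 1172 with 1 site, -0.098 for the 282 with 2, -0.098 for the 77 with 3 and -0.15 for the 23 with 4 or more. Of the 42 genes that had an 8mer and 3 or more sites in all, 35 were lower. The differences remained small for single genes: 21 of the 368 8mer genes were below 1/1.5 (5.71%) and 4 were above 1.5 (1.09%), beside 3.94% and 2.43% of all genes with a searched UTR.

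**Figure D3:**
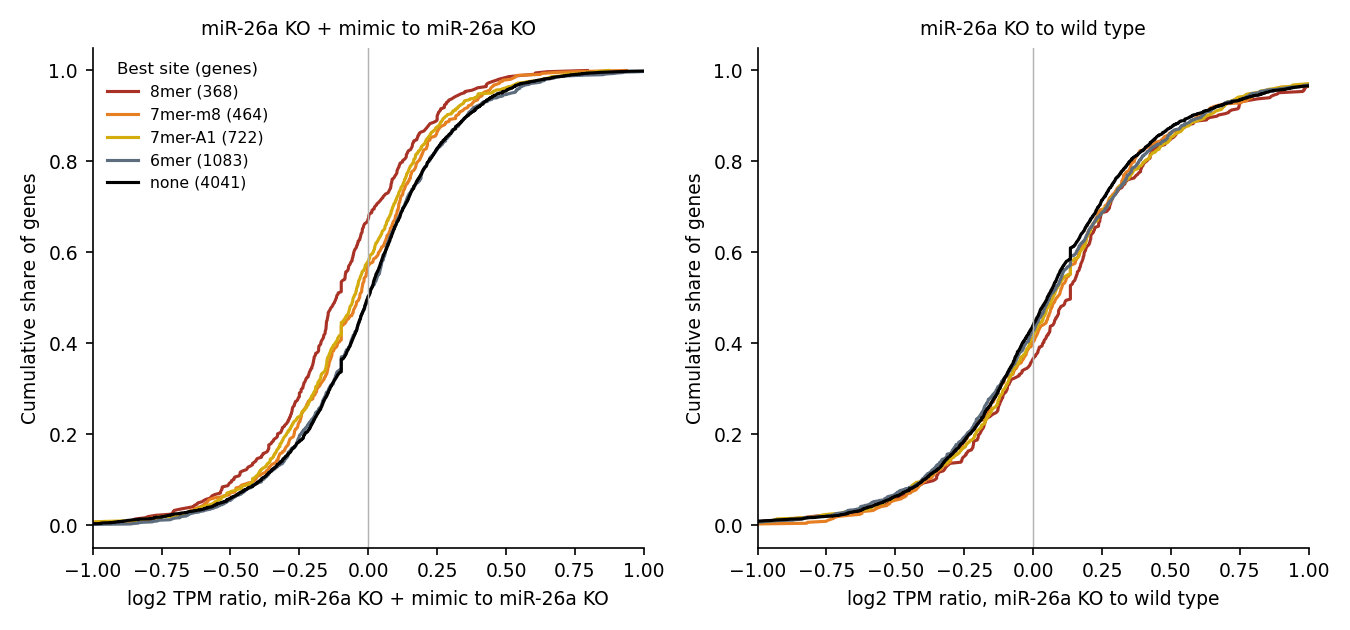
Cumulative share of genes against the log2 TPM ratio, one line for each class of best site for the sense strand, with the number of genes in brackets. Left, mimic to miR-26a KO: the 8mer line lies left of the others, with a median of -0.12 against -0.0018 for no site. Right, miR-26a KO to wild type: the 8mer line lies to the right, with a median of 0.14 against 0.051.

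Genes with sites have longer UTRs and lower TPM, which is divided by gene length. The median length of the longest UTR was 2710 bases in the 8mer class and 786 in the class with no site. The median TPM in miR-26a KO was 18.8 and 35.3, while the median number of reads was 67 in both classes. Genes were split into 3 equal bins by UTR length. Within the longest bin (1873 bases or more), the median log2 ratio was -0.13 for the 254 genes with an 8mer and -0.013 for the 717 with no site. Within the middle bin it was -0.098 for 91 genes against 0.014 for 1383. The shortest bin held 23 8mer genes, with a median of -0.046 against -0.0078 for 1941 genes. For genes with a 7mer-m8 the median was -0.13 in the shortest bin (35 genes) and -0.055 in the middle bin (127 genes). In the longest bin, which held 302 of the 464, it was -0.019, close to the -0.013 of genes with no site. This split was added after the values were seen.

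Sites of other small RNAs were counted in the same way. For the antisense strand of the mimic the median log2 ratio was -0.046 in the 223 8mer genes, -0.055 in the 451 7mer-m8 genes and -0.0075 in the 5165 genes with none. With genes that also had a sense site of 7 or 8 bases left out, the 565 genes with an antisense site of 7 or 8 bases had a median of -0.033. The 263 sense 8mer genes with no such antisense site had a median of -0.11. The 8mer genes of 3 microRNAs that were not added had medians of -0.024 (let-7a-5p, 231 genes), -0.045 (miR-23a-3p, 502 genes) and -0.055 (miR-27a-3p, 413 genes), all nearer 0 than that of the sense strand. Genes that also had a sense site were not left out of the classes of these 3 microRNAs.

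Among the 8mer genes the lowest after Tanc2 was Per3, a gene of the circadian clock, at 5.74 TPM in wild type, 11.7 in miR-26a KO, 5.89 with the mimic and 9.13 in Cart-miR-23-KO. Its ratio was 0.502 (0.325 to 0.764). Slc7a11, the cystine importer that feeds glutathione synthesis, stood at 11.9, 20.0, 11.0 and 8.71 TPM in that order, with a ratio of 0.548 (0.328 to 0.901) and 3 sites. Both were close to wild type with the mimic. Parp11 followed at a ratio of 0.552, the casein kinase gene Csnk1g1 at 0.556 and Hoxa9, a homeobox regulator of limb patterning, at 0.570 (0.404 to 0.799). Parp11 and Csnk1g1 had under 50 reads in either library.

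Some 8mer genes went the other way. Slc38a9, a lysosomal sensor of arginine, had a ratio of 1.74 (1.08 to 2.85). Runx3, a transcription factor of chondrocyte maturation, stood at 30.8 TPM in wild type, 21.9 in miR-26a KO, 34.4 with the mimic and 12.8 in Cart-miR-23-KO, a ratio of 1.57 (1.18 to 2.09). Arl4c had a ratio of 1.52 (0.922 to 2.56). All 3 were highest with the mimic.

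Messengers reported elsewhere as miR-26 targets were set out from a list of 35, of which 21 were kept. Of these, 15 were lower with the mimic and 6 higher, with a median log2 ratio of -0.098 beside -0.016 over all kept genes, and 16 were on the other side of 1 from their knockout ratio, beside 64.5% of all kept genes. The median was -0.17 over the 13 with 10 TPM and 50 reads and -0.16 over the 10 with 100 reads. Over all 35, 22 were lower, 11 higher and 2 were at 0 in both libraries. At 1.5-fold, 2 of the 21 were lower and 0 higher, beside 4.14% and 2.44% of all kept genes.

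Plod2, the lysyl hydroxylase that prepares collagen telopeptides for stable cross-links, was among the lowest of the list. It stood at 195 TPM in wild type, 271 in miR-26a KO, 175 with the mimic and 250 in Cart-miR-23-KO. Its reads went from 941 to 649, a ratio of 0.644 (0.582 to 0.713), and it had an 8mer and 3 sites in all. Tut4 (also Zcchc11), a uridylyltransferase that acts on microRNAs and their precursors, had a ratio of 0.433 (0.237 to 0.763) but no site in the UTRs searched. Its relative Tut7 had a ratio of 0.723 (0.515 to 1.01) and no site either. Plod2 and Tut4 were the lowest of the 4 libraries with the mimic.

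Ccn2, the connective tissue growth factor of chondrocytes, stood at 1456 TPM in wild type, 1104 in miR-26a KO, 870 with the mimic and 792 in Cart-miR-23-KO, a ratio of 0.788 (0.744 to 0.835). It was lower in the knockout than in wild type and lower again with the mimic. Ccnd2, cyclin D2, stood at 644, 731, 652 and 589 TPM in that order, a ratio of 0.892 (0.855 to 0.931) on over 4000 reads in each of the compared libraries. Mtdh had a ratio of 0.871 (0.762 to 0.996). For Igf1 (0.819), Adam17, Gsk3b (0.900) and Loxl2 the ratio was below 1 with an interval that held 1.

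Of the targets best known from other tissues, Ezh2, Rb1 and Smad1 had intervals that held 1, and Cdk6 was higher with the mimic. Ezh2, the methyltransferase of Polycomb repressive complex 2, had 26 reads in both libraries, a ratio of 0.934 (0.521 to 1.67). The retinoblastoma gene Rb1 had a ratio of 1.22 and the BMP mediator Smad1 one of 1.27. Cdk6, the cyclin D kinase, stood at 471 TPM in wild type, 270 in miR-26a KO, 384 with the mimic and 201 in Cart-miR-23-KO, a ratio of 1.42 (1.11 to 1.83) with an 8mer and 3 sites in all. Of the host genes, Ctdsp2 had a ratio of 0.860, Ctdsp1 one of 1.03 and Ctdspl one of 1.08, all with intervals that held 1.

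**Figure D4:**
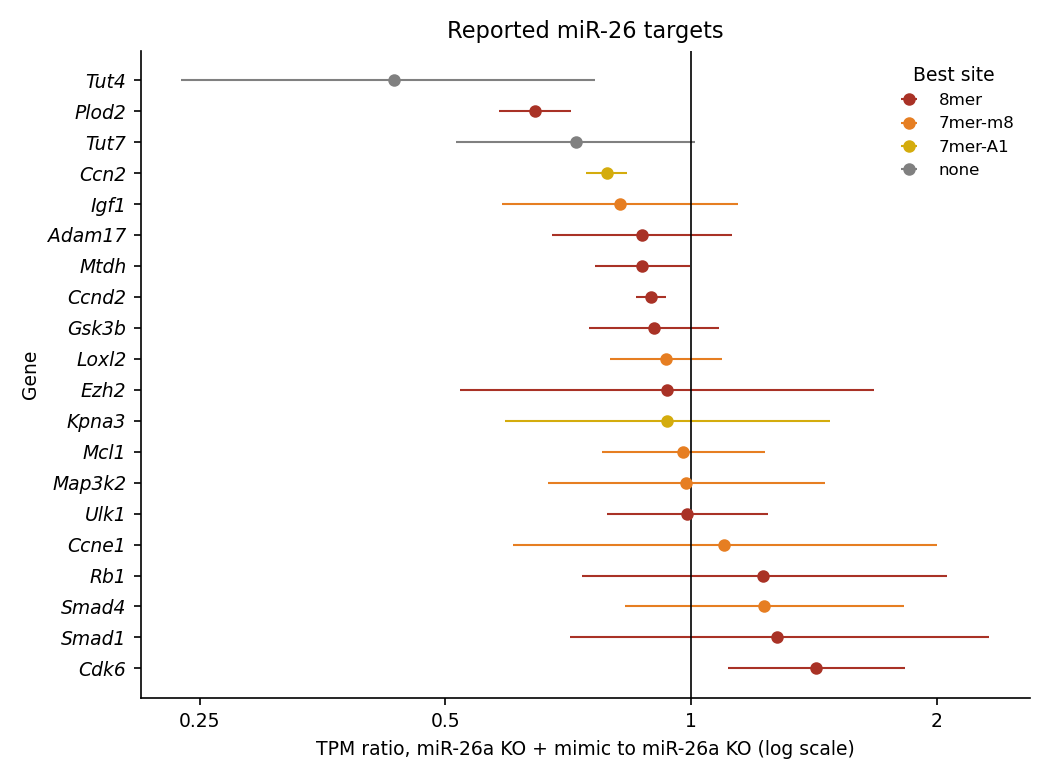
TPM ratio, mimic to miR-26a KO, of 20 of the 21 kept genes from the list of reported miR-26 targets, on a log2-spaced axis, with 95% counting intervals and the colour of the best site class. Tut4 and Plod2 lie lowest, 15 of the 20 lie below 1, and Cdk6 lies highest at 1.42.

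Genes of the machinery that microRNAs use were evenly split, with 8 of 16 kept members lower and a median log2 ratio of -0.038. Tnrc6a, which links Argonaute to the enzymes that shorten poly(A) tails, had an 8mer and stood at 292 TPM in wild type, 313 in miR-26a KO, 217 with the mimic and 314 in Cart-miR-23-KO, a ratio of 0.693 (0.558 to 0.859). Ago3 had an 8mer and a ratio of 0.674 (0.410 to 1.09). No member passed 1.5-fold.

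Double-stranded RNA can switch on interferon genes, so these were examined as a group. Of 48 genes, 21 were kept, 14 of them higher and 7 lower, beside 47.4% higher over all kept genes, with a median log2 ratio of 0.12, which was -0.020 over the 11 genes with 10 TPM and 50 reads. Over the whole list 24 were higher, 19 lower and 5 at 0 in both libraries. Ifit3, an interferon-induced RNA binding protein, had a ratio of 0.596 (0.421 to 0.837), Rtp4 one of 1.73 (0.978 to 3.14) and Ifitm3 one of 1.17. The only member above 1.5-fold was Rtp4, with 20 reads in miR-26a KO, and the only one below 1/1.5 was Ifit3. Of 10 kept genes of NF-kB and inflammation, 4 were higher and 6 lower, with 1, Nfkb2 (1.55, interval 0.979 to 2.48), past 1.5-fold. Over all 32 members, 15 were higher, 13 lower and 4 at 0 in both libraries.

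Genes of the cartilage matrix had no common direction, with 14 of 30 kept genes higher and 16 lower and a median log2 ratio of -0.015. Col2a1 (1.02) and Acan, which codes for aggrecan (1.04), differed little. Ucma, a vitamin K-dependent protein of young cartilage, stood at 3631 TPM in wild type, 1562 in miR-26a KO, 1101 with the mimic and 1448 in Cart-miR-23-KO, a ratio of 0.705 (0.625 to 0.794). Like Matn1, Ucma was lower in the knockout and lowest with the mimic. The small proteoglycan gene Epyc had a ratio of 1.76 on 26 reads in miR-26a KO, and Col10a1, the collagen of hypertrophic cartilage, one of 1.38 (1.03 to 1.85). The 9 chondrocyte markers had a median of -0.027.

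Genes of the fibrous matrix were split, with 14 of 29 higher, 15 lower and a median log2 ratio of -0.042. The collagen VI chains were higher, with ratios of 1.30 for Col6a1, 1.41 for Col6a2 (1.27 to 1.58) and 1.27 for Col6a3, all with intervals above 1. The collagen I chains differed in direction: Col1a1 had a ratio of 1.19 (1.16 to 1.21), while Col1a2, which has an 8mer, had one of 0.883 (0.863 to 0.904) and went from 18146 to 16021 TPM. Lox, which starts collagen cross-links, had a ratio of 0.806 and P4ha1, a prolyl hydroxylase, one of 0.817. Of 19 kept proteases and inhibitors, 12 were higher and 7 lower, beside 47.4% higher over all kept genes, with a median log2 ratio of 0.026, led by Ctsk, cathepsin K, at 1.48 (1.26 to 1.75).

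Of 20 kept genes of ossification, 16 were higher with the mimic, beside 47.4% of all kept genes, with a median log2 ratio of 0.15 beside -0.58 for miR-26a KO to wild type. Over the whole list of 30, 19 were higher, 9 lower and 2 at 0 in both libraries, and among the members left out Bmp3 went from 12 to 4 reads and Bmp2 from 16 to 7. With 100 reads or more in miR-26a KO, 11 members were left and their median was 0.047. Tmem119, a membrane protein of osteoblasts, stood at 178 TPM in wild type, 36.1 in miR-26a KO, 67.0 with the mimic and 7.05 in Cart-miR-23-KO, a ratio of 1.86 (1.40 to 2.47). Bglap, osteocalcin, had a ratio of 1.65 (1.17 to 2.34). Pth1r, the receptor of parathyroid hormone and its related protein, stood at 712, 336, 504 and 193 TPM in that order, a ratio of 1.50 (1.36 to 1.65) on 704 and 1129 reads. Alpl, the phosphatase of mineralising cells, had a ratio of 1.37 (1.21 to 1.55). These 4 genes were below wild type in the knockout library, and with the mimic Bglap alone passed the wild type level. All 6 kept osteoblast markers were higher, but this list overlaps that of ossification. With osteoblast markers and Tmem119 left out after the values were seen, the 14 other kept ossification genes had a median of 0.11. The summed TPM of the osteoblast markers, Dmp1 and Phex included, was 12187 in wild type, 6172 in miR-26a KO, 6908 with the mimic and 2293 in Cart-miR-23-KO. Fewer cells of a type and less RNA per cell cannot be told apart in these libraries.

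Macrophage markers were mostly higher with the mimic. Of 23 markers, 6 were kept, all higher, beside 47.4% higher over all kept genes. The median log2 ratio of the 6 was 0.71, and 4 of them were above 1.5, beside 2.44% of all kept genes. Over the whole list of markers 22 were higher and 1, Cd74, lower. Their summed level was 1360 TPM in wild type, 509 in miR-26a KO, 899 with the mimic and 1670 in Cart-miR-23-KO. Lyz2, lysozyme, stood at 518 TPM in wild type, 177 in miR-26a KO, 296 with the mimic and 507 in Cart-miR-23-KO, a ratio of 1.67 (1.41 to 1.97). Cd68, a lysosomal protein of macrophages, had a ratio of 1.84 (1.19 to 2.89) and Csf1r, the receptor of the growth factor CSF1, one of 1.70 (1.17 to 2.51). The lipid carrier Apoe, which macrophages make in quantity, stood at 337, 103, 179 and 405 TPM in that order, a ratio of 1.73 (1.40 to 2.15), and was named after its values were seen. The mimic library thus lay between miR-26a KO and wild type for the sum, Lyz2, Cd68 and Apoe, and Csf1r was at 165 TPM in wild type and 173 with the mimic. The general leukocyte markers Ptprc and Cd53 had 0 reads in miR-26a KO and 3 and 4 reads with the mimic. The share of macrophages in the cultures, and its part in the genes that were higher or turned back, was not tested. Ctsk is both a protease of osteoclasts and a member of the other list above, and 8 of 10 osteoclast markers were not kept.

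The markers of other cell types differed less than those of macrophages. The summed TPM of synovial fibroblast markers was 868 in miR-26a KO and 949 with the mimic, that of smooth muscle and myofibroblast markers 709 and 820, and that of adipocyte markers 218 and 230. Car3, a carbonic anhydrase of fat and muscle, had a ratio of 0.511 (0.358 to 0.725) and Fabp4, the fatty acid binding protein of fat cells, one of 1.49.

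**Figure D5:**
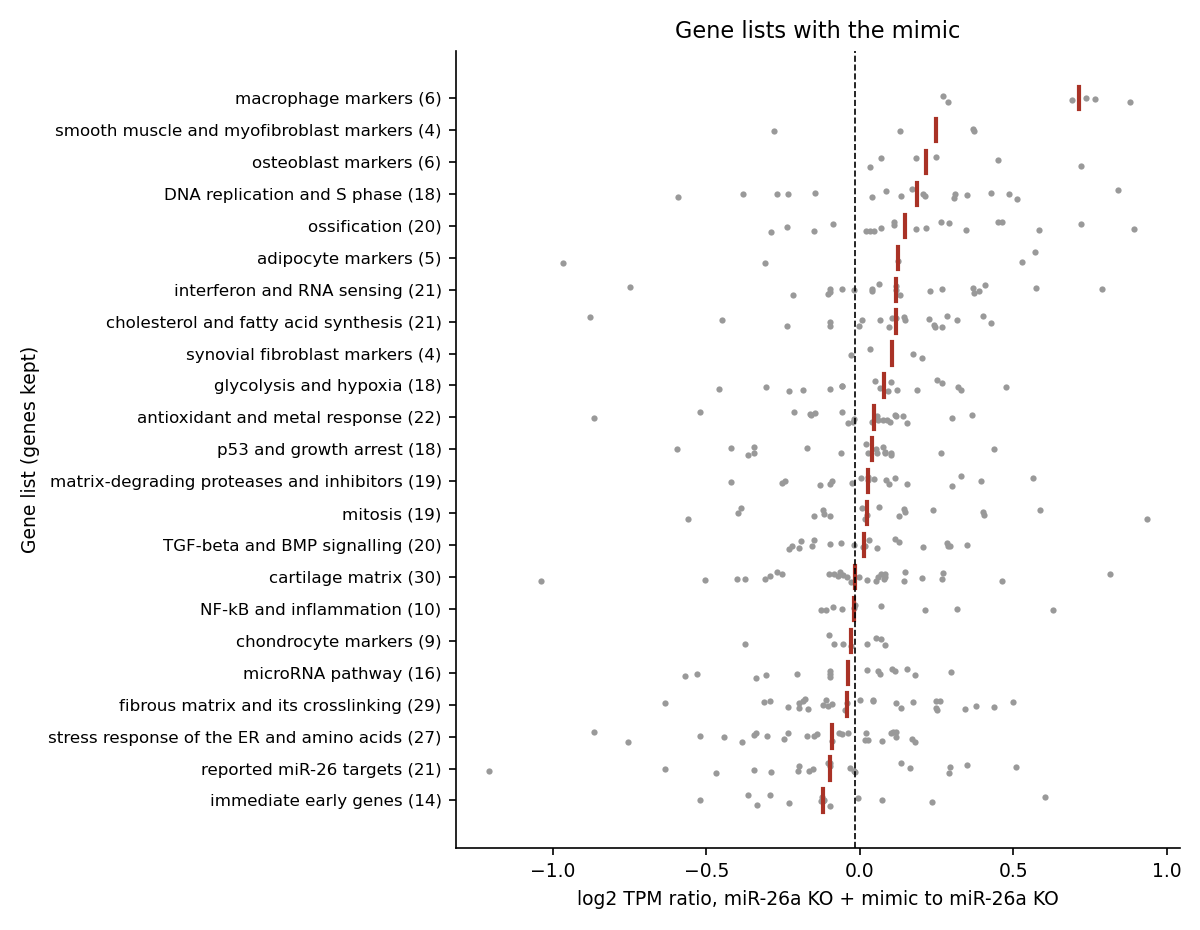
log2 TPM ratio, mimic to miR-26a KO, of the kept members of 23 gene lists with 4 or more kept genes, each point 1 gene and each red bar the median of the list, with the number of kept genes in brackets. The dashed line is the median of all kept genes, -0.016. Macrophage markers lie highest (0.71) and immediate early genes lowest (-0.12), and most lists lie within 0.2 of 0.

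Of 18 kept genes of DNA replication, 13 were higher with the mimic and 5 lower, beside 47.4% higher over all kept genes, with a median log2 ratio of 0.19. The interval lay above 1 for 2 of the 18, and over the whole list of 30, 20 were higher and 10 lower. The kept genes were led by Ung (1.79, 25 and 48 reads) and the ligase Lig1 (1.43, interval 1.05 to 1.95). Of 19 genes of mitosis, 12 were higher and 7 lower with a median of 0.024, and Ccnb2, cyclin B2, had the highest ratio at 1.91 (1.11 to 3.39). The same mitosis genes had a median of 1.26 for miR-26a KO to wild type, and 7 of the 19 turned back. With the mimic all 19 were above wild type, by a median of 1.44 on the log2 scale. For p53 and growth arrest the median was 0.041, for TGF-beta and BMP signalling 0.015 and for glycolysis and hypoxia 0.078.

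The stress genes of the endoplasmic reticulum and of amino acid supply were lower in 17 of 27 kept cases, beside 52.6% of all kept genes, with a median of -0.090, which was 0.019 over the 19 with 100 reads or more, led by Slc7a11 and by Pdia4, a protein disulphide isomerase (0.592, interval 0.348 to 0.992). Of 21 kept genes of lipid synthesis, 15 were higher and 6 lower, with a median of 0.12, and over the whole list of 30, 20 were higher and 10 lower. Antioxidant genes had a median of 0.048. Immediate early genes were lower in 11 of 14 kept cases, beside 52.6% of all kept genes, with a median of -0.12. The interval lay below 1 for 1 of the 14, and over the whole list of 22, 13 were lower and 9 higher. Among the kept genes were Klf6 (0.698) and Fos (0.793), and Jund was higher at 1.52 (0.890 to 2.64).

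Genes with 100 reads or more in miR-26a KO were also looked at, and those named here were chosen after the values were seen. Malat1 had the most reads of the genes past 1.5-fold. This long RNA stays in the nucleus and is not translated, and it stood at 554 TPM in wild type, 852 in miR-26a KO, 458 with the mimic and 1090 in Cart-miR-23-KO. Its reads went from 5657 to 3253, a ratio of 0.537 (0.514 to 0.561). Foxo1, a transcription factor that protects cartilage through autophagy, stood at 10.8, 15.6, 8.61 and 9.49 TPM in that order, a ratio of 0.550 (0.409 to 0.736) with only a 6mer. Both were lowest with the mimic.

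Phldb2, which anchors microtubules at the cell cortex, had an 8mer and stood at 50.5 TPM in wild type, 61.4 in miR-26a KO, 37.4 with the mimic and 65.7 in Cart-miR-23-KO, a ratio of 0.610 (0.510 to 0.729). Esf1 (0.605) and Utp3 (0.612), both of ribosome assembly, followed without a site. On the higher side stood Bcat1, which breaks down branched-chain amino acids (1.57, interval 1.25 to 1.98, with 2 sites of 7 bases), Twsg1, which binds BMPs (1.46), and the cytokine gene Mif (1.40, interval 1.21 to 1.63). The messengers with the highest TPM with the mimic differed by little. Their ratios were 0.976 for the mitochondrial ND4, 1.07 for Rplp1, 0.883 for Col1a2, 0.906 for vimentin (Vim) and 1.12 for Rps14.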

How the data were processed

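Each of the 4 conditions had 1 library of 3′-end RNA sequencing, assigned from the sample labels. Per the labels the genome build was mm10 or GRCm38.p6. The authors deposited TPM for all 4 libraries and read counts per gene, treated here as estimated counts only because the deposited table ends with alignment rates that are not whole, for all but the mimic library. The reads of every gene were whole numbers. The aligner and counting tool are not given in the sources used here.

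Reads of the mimic library were recovered from its TPM: reads per TPM of a gene in the other libraries gave its length up to 1 factor, and 14429 of 14429 values then came within 0.001 of a whole number. Another 588 genes (817 TPM in sum), none of them kept, could not be recovered. The TPM ratio was 0.994 times the ratio of read shares. Genes were kept at 5 TPM or more in both libraries and 20 reads or more in miR-26a KO and ranked by TPM ratio, with a fold of 2 (1.5 as the smaller fold). With 1 library a side no test across genes was run. Interval arithmetic and read recovery were tested on simulated data. The floor for a gene without reads was 3 reads. The members and the 28 gene lists were chosen with earlier results of these data known.

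Seed sites were searched in the UTRs of GENCODE M21 protein-coding transcripts. miR-140-5p sites were not analysed here. Of the gene names, 32772 that the tables left blank were filled from the reference by gene ID. Genes named in the text were the 12 highest and 12 lowest ratios. Up to 4 kept members of each list were named, those with the largest ratio in either direction. Also named were the kept reported targets and host genes, and the 6 lowest and 3 highest 8mer genes. The 5 kept genes with the highest TPM with the mimic were named too. Others are given as list members or as named after their values were seen. Python 3.11.15, pandas 2.3.3, scipy 1.17.1, edgeR 4.0.16 and DESeq2 1.42.0 (the last pair for scaling factors only) were used. Alternatives were other scalings, pseudocounts of 0.5 and 5 TPM, other filters, folds and UTR choices. The results of 2 genes are not reported here.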

Additional observations from a re-analysis of the deposited data

How the results depend on the processing

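No paired analysis was possible because no condition had a second library. Ratios above 2 and below 0.5 rest on few reads, so their numbers moved with the filter: with 5 TPM added there were 3 and 11 genes, at 1 TPM or more 14 and 78, at 10 TPM and 50 reads 0 and 7, without a filter 707 and 993, and at a fold of 1.5 169 and 287. With 5 TPM asked of miR-26a KO only, 66 genes were below 0.5. After seeing the data, 100 reads in miR-26a KO gave 0 and 4, and 20 reads in either library 102 and 80. Genes past 2-fold with the mimic above or below every other library numbered 6 and 23, and 2 and 8, 10 and 60, 0 and 5, and 398 and 544 under the first 4 of these filters, 52 below with 5 TPM in miR-26a KO only, 0 and 2 with 100 reads and 70 and 62 with 20 reads in either. The share of genes that turned back was 63.1% with 100 reads, 61.7% with Cart-miR-23-KO in place of wild type and 90.5% of the 179 genes past 1.5-fold in both ratios.

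Scaling moved every ratio by the same small amount: the median log2 ratio of kept genes shifted by 0.0093 with CPM of reads, 0.024 with edgeR's TMM and 0.011 with DESeq2 size factors, and the share of genes above 1 went from 47.4% to 51.1% with TMM. Under TMM the medians were -0.0075 for 7mer-m8, -0.030 for 7mer-A1 and 0.022 for no site, and for no site 0.014 after division by the median ratio. With 100 reads they were -0.12 for 8mer, -0.065 for 7mer-m8 and 0.011 for no site. By UTR length, the median was -0.046 for 8mer and -0.13 for 7mer-m8 genes in the bin of shortest UTRs, and for no site 0.014 in the middle and -0.013 in the longest bin. The 8mer median stayed below that of no site in each of these settings. Medians of gene lists near 0, or over few genes, moved with the filter and the scaling. With 10 TPM and 50 reads the interferon median went from 0.12 to -0.020, that of reported targets from -0.098 to -0.17, that of TGF-beta and BMP signalling from 0.015 to -0.019 and that of adipocyte markers from 0.13 to 0.33 (4 genes). With 100 reads that of ER and amino acid stress went from -0.090 to 0.019, of ossification from 0.15 to 0.047, of the microRNA pathway from -0.038 to -0.20 (3 genes) and of the miR-26 host genes from 0.036 to -0.051 (2 genes). With TMM, NF-kB went from -0.017 to 0.0068 and cartilage matrix from -0.015 to 0.0091. At this depth a difference below 1.5-fold could not be told from counting error for most single genes.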

Other observations

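The filter asks for 20 reads in miR-26a KO and so leaves out genes that were low there. There were 559 genes with fewer than 20 reads in miR-26a KO and 20 or more with the mimic, and 89 of them had a TPM ratio above 2. As this choice asks for a high value in the mimic library, the count is a description only. The genes named here were chosen after their values were seen. Fcer1g, an Fc receptor chain, had 13 reads in miR-26a KO and 48 with the mimic, and stood at 92.3 TPM in wild type, 20.3 in miR-26a KO, 69.9 with the mimic and 122 in Cart-miR-23-KO. Tyrobp, a signalling adaptor, had 6 and 29 reads, Trem2, a lipid receptor, 6 and 23, and C1qc, a chain of complement C1q, 12 and 39. Mmp3, stromelysin, had 5 reads in miR-26a KO and 22 with the mimic. A low value in miR-26a KO is part of how these 5 were chosen.

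Some genes left out by the filter were far higher with the mimic than in every other library. The glycolytic enzyme gene Pgam1 had 13 reads in wild type, 8 in miR-26a KO, 74 with the mimic and 6 in Cart-miR-23-KO. The pseudogene Gm8730 had 22, 9, 110 and 6 reads in that order. Erdr1 had 1, 0, 30 and 3 reads. Each may share reads with copies elsewhere in the genome, and their values are uncertain.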
